A study of Mus musculus with 12 samples.

Results

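The 32 genes described here encode the mitochondrial beta-oxidation route for fatty acids, from acyl-CoA synthetases through the carnitine shuttle and the oxidation cycle to the electron transfer flavoproteins. They were chosen by gene symbol, not by any measured value, and all 32 were found among the 55487 genes of the deposited tables. Of these, 31 passed the filter on low counts and were tested together with 15862 genes in all. The exception was Cpt1b, the muscle form of carnitine palmitoyltransferase 1, which did not exceed 0.464 CPM (counts scaled to the size of the library) in any library.

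The data are bulk RNA-seq libraries from the livers of 12 males, all 16 to 18 months old, in 4 groups of 3. The controls were Foxo3 floxed and Cre-negative. The knockouts were Foxo3 floxed and carried Alb-cre, in which the albumin promoter drives Cre in hepatocytes. Mice of both genotypes were taken either fed or after overnight fasting, so all 4 groups share the floxed alleles, and a Cre-positive group without floxed alleles is not part of the design. Foxo3 encodes a forkhead transcription factor, and the comparisons ask how fasting and the hepatocyte knockout bear on liver transcripts.

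Fatty acids that reach the liver are first joined to coenzyme A by acyl-CoA synthetases. Long-chain acyl groups then cross the inner mitochondrial membrane as carnitine esters, a step that Cpt1 controls and that malonyl-CoA inhibits. Inside, repeated rounds of dehydrogenation, hydration, a second dehydrogenation and thiolysis release acetyl-CoA, which the fasted liver turns largely into ketone bodies. The acyl-CoA dehydrogenases pass their electrons to electron transfer flavoprotein, and its own dehydrogenase hands them on to ubiquinone. In liver, many genes of this route are known targets of PPAR alpha, a fatty acid-activated nuclear receptor that binds AGGTCA repeats as a partner of the retinoid X receptor.

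Sequence just upstream of 5 members is shown. Of these, Acadm, Hadha and Hadhb rose with fasting, while Echs1 and Etfa did not pass the test. Echs1 and Etfa are also the only members with a match within 2 mismatches as marked below. Other members that did not pass are not shown, so the 5 are no comparison of motif and response. Promoters were taken from RefSeq on GRCm38.p6 (the mm10 build of the files), which held 28 starts for 27 of the 32 members. Capitals mark AGGTCA on either strand in Acadm, and in Echs1 and Etfa the best match, on either strand, to 2 AGGTCA repeats in the same direction with 1 base between them, with 2 mismatches. Each runs 5′ to 3′ on the strand of the gene.
Acadm, chr3:153944644-153944893, minus strand: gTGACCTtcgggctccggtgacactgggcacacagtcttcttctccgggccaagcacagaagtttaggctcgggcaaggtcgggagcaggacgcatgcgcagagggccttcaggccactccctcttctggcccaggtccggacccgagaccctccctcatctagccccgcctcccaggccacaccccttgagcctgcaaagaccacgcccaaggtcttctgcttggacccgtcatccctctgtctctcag
Echs1, chr7:140116477-140116671, minus strand: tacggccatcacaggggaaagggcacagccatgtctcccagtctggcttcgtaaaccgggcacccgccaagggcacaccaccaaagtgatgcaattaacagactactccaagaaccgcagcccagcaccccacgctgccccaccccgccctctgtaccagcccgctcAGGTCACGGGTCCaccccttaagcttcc
Etfa, chr9:55512244-55512493, minus strand: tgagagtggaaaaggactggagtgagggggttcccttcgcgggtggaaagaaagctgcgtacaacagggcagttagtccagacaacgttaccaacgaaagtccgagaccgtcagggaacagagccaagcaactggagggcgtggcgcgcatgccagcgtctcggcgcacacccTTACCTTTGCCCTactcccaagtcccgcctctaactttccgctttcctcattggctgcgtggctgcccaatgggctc
The genes for the 2 subunits of the trifunctional protein, Hadha on the minus strand and Hadhb on the plus strand, start back to back on chromosome 5 with only 85 bases between them. That interval has no AGGTCA on either strand and is shown whole because both genes rose together.
Hadha to Hadhb, chr5:30155163-30155247, plus strand: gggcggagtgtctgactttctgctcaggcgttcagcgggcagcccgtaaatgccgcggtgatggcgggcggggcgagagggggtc

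In the 250 bases before the start, AGGTCA was found on either strand in 5 of the 28 member promoters, or 17.9%, against 14.0% of 32851 RefSeq promoters of the same length. The 5 genes were Acadm, Acadvl, Acsm1, Cpt1a and Echs1, of which Acadm, Acadvl and Cpt1a rose with fasting. No member promoter held the exact double repeat, which was present in 0.0335% of all promoters. With up to 2 mismatches it was found in 2 member promoters (7.14%), those of Echs1 and Etfa, against 3.24% of all. These matches describe letters in a short window, and binding was not measured.

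Library totals ran from 17520058 to 22414976 counts. The 32 genes took 0.699 to 0.778% of the counts in fed control livers, 0.95 to 1.06% in fasted control livers, 0.588 to 0.666% in fed knockout livers and 0.928 to 1.04% in fasted knockout livers. Hepatocyte markers were high in every library, with 69000 to 119000 CPM summed over 7 genes and Alb leading the list. Fed control replicate 3 stood apart on the second principal component, at -46.9 against -14.7 to 23.8 elsewhere. Its 5 infiltrating macrophage markers summed to 54.1 CPM against 4.15 to 15.9 elsewhere, and its 5 stellate cell markers to 467 CPM against 137 to 318. Gene-level Foxo3 was 44.5 to 50.4 CPM in fed controls and 58.8 to 62.2 CPM in fed knockouts, and 38.1 to 44.3 CPM and 46.6 to 53.6 CPM in the fasted groups. It was thus not lower in libraries labelled knockout. Which exons are floxed is not stated in the labels, so a count over the whole gene does not check the genotype. No batch is named, and differences of cohort or day cannot be told apart from genotype or feeding.

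Compared per length, in TPM, the length-scaled unit of the deposited tables, the members spanned a wide range. Acaa2, a mitochondrial thiolase, was the most abundant by TPM. Its mean over the 12 libraries was 1370 TPM, or 24% of the summed TPM of all members. It exceeded the next gene, Etfa (417 TPM), in 12 of 12 libraries. Etfa, Acadvl (378 TPM), Acsm1 (302 TPM), Acsl1 (296 TPM) and Acadm (289 TPM) followed, and each stood above its next neighbour in only 6 to 9 of the 12 libraries, so their order is not firm. Hadhb, at 67.8 TPM, lay below its partner subunit Hadha at 107 TPM. At the low end, Acad9 (8.72 TPM) and Acad12 (4.4 TPM) each exceeded the next gene in all 12 libraries, and Cpt1b stood last at 0.157 TPM. This order depends on the 1 fixed length per gene used for TPM. In CPM, not divided by length, the group means of Acsl1 exceeded those of Acaa2. They were 950 against 791 CPM in fed controls and 1650 against 924 CPM in fasted controls. In knockouts they were 829 against 745 CPM fed and 1640 against 921 CPM fasted. The skeletal muscle markers Myh4, Acta1 and Ckm were at 0 in 12, 11 and 11 of the 12 libraries. Of the other markers on that list, Tnnt3 was at 0 in 7 libraries and Mylpf was found in all 12, at 0.225 to 0.764 CPM. Of the exonic bases of Cpt1b, 81.4% are shared with the same-strand gene model Gm44502, which had 0 counts, and how reads in shared exons were handled is not given in the sources used here.

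Fasting raised most of the route and lowered part of the synthetase group. Averaged over both genotypes, 19 of the 31 tested members rose and 4 fell at an adjusted p under 0.05 (edgeR quasi-likelihood F test, Benjamini-Hochberg over all 15862 tested genes), against 4.55% of all tested genes called higher and 4.52% called lower. The median log2 change of the members was 0.55, against -0.01 for all tested genes. In 18 members all 6 fasted libraries lay above all 6 fed libraries, and in 4 all lay below, where 2.59% and 2.34% of all tested genes did so. Among the synthetases 1 of 7 rose and 4 fell. The 5 tested genes of the carnitine shuttle all rose, as did 5 of 8 acyl-CoA dehydrogenases, 4 of 6 genes of hydration to thiolysis, both auxiliary enzymes and 2 of 3 electron transfer genes. These livers were sequenced in bulk, so a change in the share of hepatocytes and a change in RNA per hepatocyte cannot be told apart. The hepatocyte marker sums of fed libraries (69700 to 118000 CPM) and fasted libraries (69000 to 119000 CPM) overlapped. In controls, the 5 stellate cell markers summed to 260 to 467 CPM fed and 170 to 256 CPM fasted, and the 5 adipocyte markers to 38.8 to 64.6 CPM fed and 5.83 to 14.6 CPM fasted. In knockouts those 2 lists overlapped, while the 5 cholangiocyte markers summed to 7.05 to 12.5 CPM fed and 4.73 to 5.89 CPM fasted and the 5 B and plasma cell markers to 9.67 to 11.8 CPM and 4.43 to 5.98 CPM. Cidea led the adipocyte list, and its defining genes Lep, Plin1 and Adipoq were at 0 in 12, 11 and 7 libraries. The part of other cell types in the member changes was not tested.

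**Figure D1:**
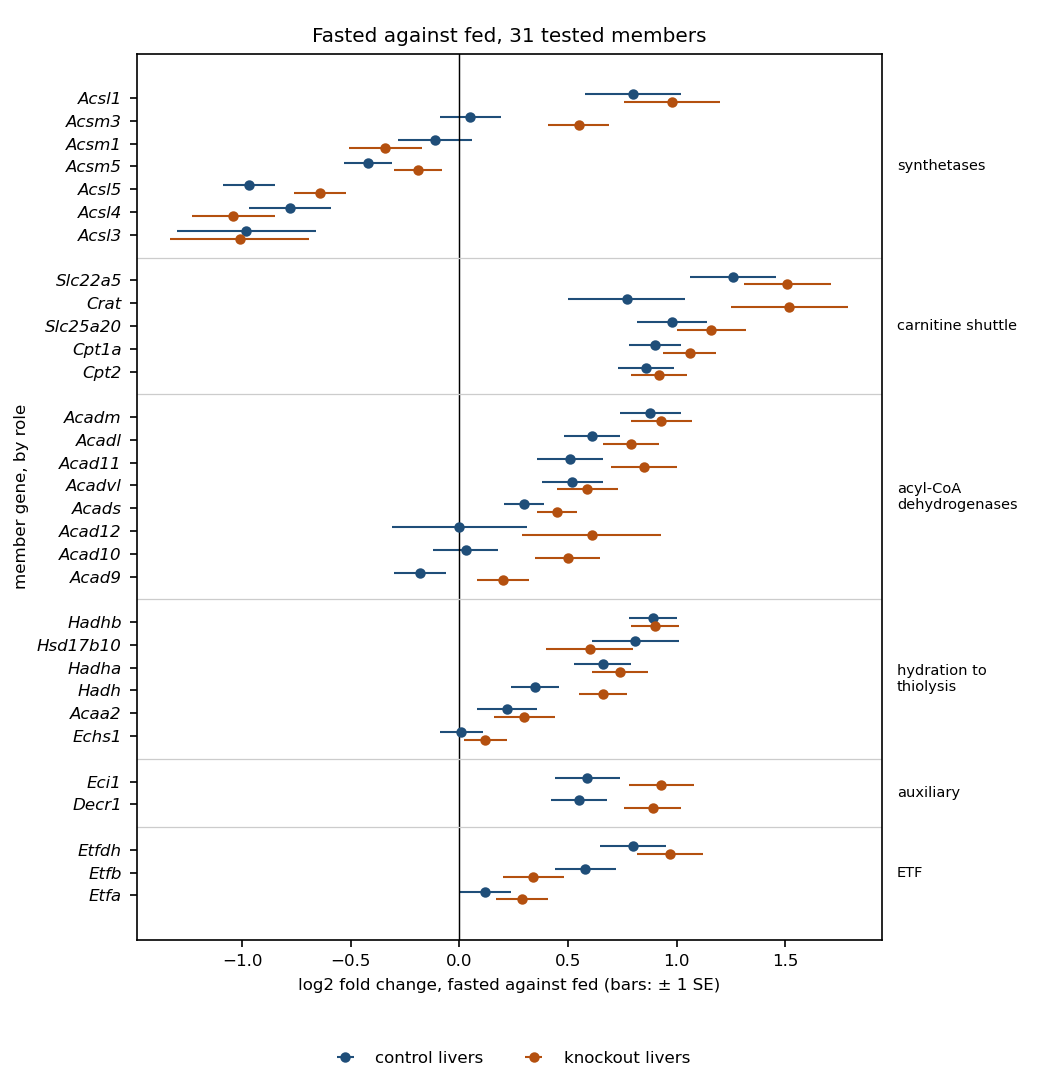
Fitted log2 fold change of fasted against fed livers for the 31 tested members, grouped by role, in control (blue) and knockout (orange) mice, with bars of 1 SE. Members of the carnitine shuttle lie between 0.77 and 1.52 in both genotypes, while Acsl3, Acsl4 and Acsl5 lie between -1.04 and -0.64.

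Within each genotype fewer members passed. In control livers 13 members rose and 3 fell, against 2.05% and 2.09% of all tested genes, and the median change was 0.52. In knockout livers 17 rose and 2 fell, against 1.36% and 1.12%, with a median of 0.61. Fasted control libraries lay all above fed ones in 18 members and all below in 4 (11.5% and 10.9% of all tested genes), and fasted knockout libraries did so in 24 and 4 (11.5% and 11.8%). These counts depended on single libraries, as did those of all tested genes. The control count of 16 fell to 9 without fed control replicate 2. It fell to 8 without fasted control replicate 2 and to 10 without fasted control replicate 3. The genes called in all fell there from 657 to 341, 272 and 312. The knockout count of 19 fell to 8 for fed knockout replicate 1 and to 11 for fasted knockout replicate 3. The genes called in all fell there from 393 to 88 and 148. The averaged count of 23 stayed between 21 and 23 when any 1 library was left out. The genes called in all, 1438 on average over genotypes, were then 1025 to 1425. Without fed control replicate 3 and fed knockout replicate 1 together, the 3 member counts were 12, 15 and 22, with 528, 202 and 1144 genes in all. Cpt1a, Cpt2, Slc25a20, Slc22a5, Acadm, Hadhb and Etfdh passed the test in both genotypes under every alternative run for them.

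The carnitine shuttle held the 4 largest average rises among the members. Slc22a5 encodes OCTN2, the plasma membrane transporter that brings carnitine into the cell. It stood at 31.2, 22.3 and 27.5 CPM in fed controls, and the fasted controls had 50.3, 78.5 and 65.5 CPM. The fed knockout livers had 18.8, 20.4 and 26.6 CPM and the fasted ones 55.3, 54.8 and 77.9 CPM. All 6 fasted libraries lay above all 6 fed ones, and the fed knockout and fed control livers overlapped. The log2 change was 1.26 ± 0.20 (SE, n = 3 per group) in controls (edgeR adjusted p = 0.0062) and 1.51 ± 0.20 in knockouts (edgeR adjusted p = 0.0038), and 1.39 ± 0.14 on average (edgeR adjusted p = 0.00016).

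Cpt1a (chr19:3322334-3385733), the liver form of the enzyme that makes acylcarnitines at the outer membrane, had 491, 464 and 537 CPM in fed controls and 877, 932 and 982 CPM in fasted controls. The corresponding knockout values were 430, 435 and 451 CPM fed and 932, 1010 and 807 CPM fasted. Fed and fasted groups did not overlap in either genotype, and the ranges of the 2 fasted groups overlapped. The average log2 change was 0.98 ± 0.086 (edgeR adjusted p = 4.9e-05), a 1.98-fold rise.

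Slc25a20, the inner membrane carrier that exchanges acylcarnitine for carnitine, stood at 129, 92.5 and 104 CPM in fed controls and 185, 247 and 212 CPM in fasted controls. In knockouts it stood at 70.8, 92.3 and 99.1 CPM fed and 202, 172 and 212 CPM fasted. Every fasted library was above every fed one, and the log2 change averaged 1.07 ± 0.12 (edgeR adjusted p = 0.00016). Cpt2, which returns the acyl group to coenzyme A in the matrix, went from 99 to 126 CPM over the 6 fed libraries to 180 to 250 CPM over the 6 fasted ones, an average log2 change of 0.89 ± 0.09 (edgeR adjusted p = 0.00011). The TPM ratio of Cpt1a to Cpt2 was 1.22 to 1.5 in fed and 1.17 to 1.75 in fasted livers, overlapping ranges.

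Crat, the carnitine acetyltransferase that acts on short acyl groups, was the most variable of this set. Fed controls had 82.6, 51.2 and 89.4 CPM and fasted controls 130, 164 and 88.8 CPM, so that 1 fasted value lay just below the highest fed one. Fed knockouts had 31, 55.8 and 41.6 CPM and fasted knockouts 132, 116 and 120 CPM, without overlap. The average log2 change was 1.15 ± 0.19 (edgeR adjusted p = 0.004). Within genotypes the log2 change was 0.77 ± 0.27 in controls, which did not pass the test (edgeR adjusted p = 0.14), and 1.52 ± 0.27 in knockouts (edgeR adjusted p = 0.017). The knockout call was lost without fed knockout replicates 1 or 3 or fasted knockout replicates 1 or 3, with adjusted p up to 0.0756. It was also lost without the filter on low counts (0.0531) and without fed control replicate 3 and fed knockout replicate 1 together (0.0592). The difference between genotypes, 0.74 ± 0.38, did not pass either (edgeR adjusted p = 0.73).

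**Figure D2:**
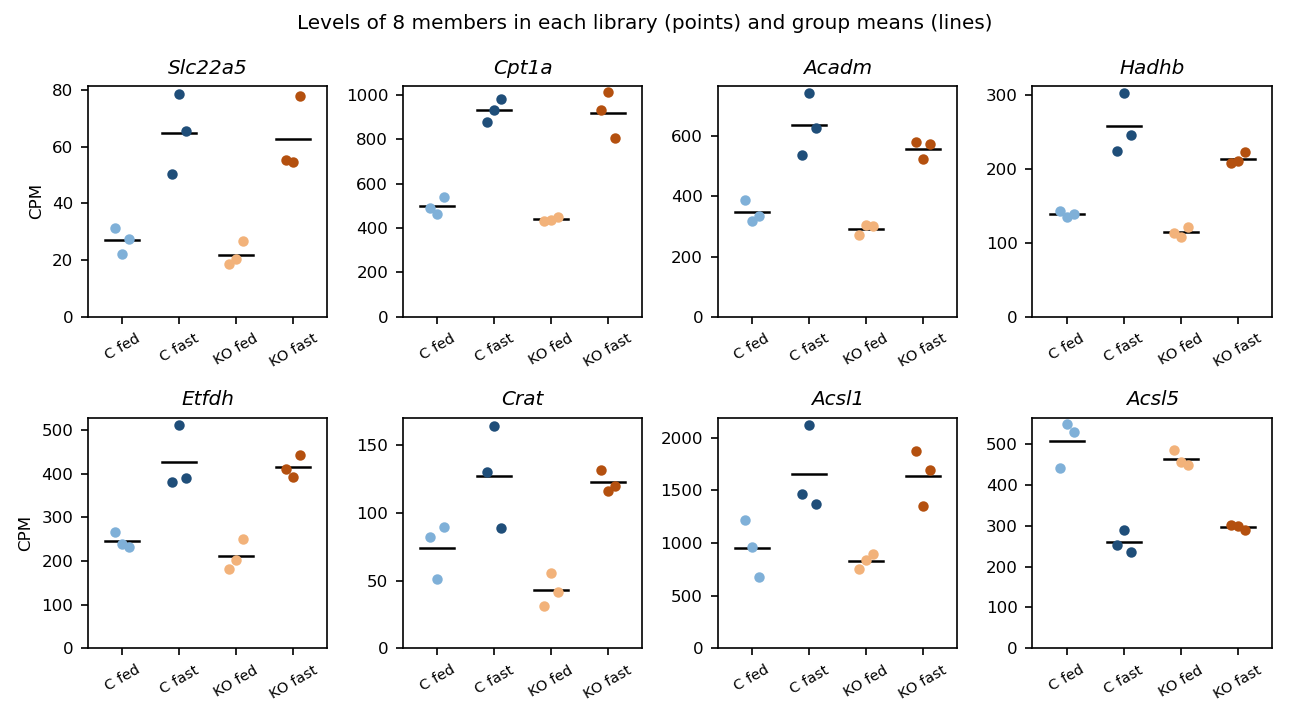
Levels of 8 members in CPM in each library (points) with group means (lines), for control (C) and knockout (KO) mice, fed or fasted, on linear axes that start at 0. Acsl5 is the only one of the 8 whose fasted values (237 to 301 CPM) lie below its fed values (441 to 550 CPM), and in Crat 1 fasted control value (88.8 CPM) lies just below the highest fed control value (89.4 CPM).

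Acyl-CoA dehydrogenases start each round, and each acts on a range of chain lengths. Acadm, the medium-chain enzyme on chr3:153922357-153944632 whose upstream sequence is printed above, had 387, 319 and 334 CPM in fed and 539, 743 and 627 CPM in fasted controls. Knockout livers had 270, 305 and 302 CPM fed and 580, 523 and 574 CPM fasted. No fed library reached a fasted one, and the average log2 change was 0.91 ± 0.096 (edgeR adjusted p = 0.00014). The long-chain enzyme Acadl moved from 138 to 204 CPM fed to 257 to 333 CPM fasted (log2 0.70 ± 0.089, edgeR adjusted p = 0.00049). Acadvl, the very long-chain enzyme, changed by 0.55 ± 0.10 (edgeR adjusted p = 0.0045). For Acadvl 42.9% of exonic bases are shared with Dvl2 on the opposite strand. The libraries were made strand-specific, but the strand setting of the counting is not given in the sources used here.

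Acads, the short-chain enzyme, showed a smaller rise, from 108 to 143 CPM over fed libraries to 150 to 178 CPM over fasted ones (log2 0.37 ± 0.065, edgeR adjusted p = 0.0034). The TPM ratio of Acadm to Acads was 1.37 to 1.56 in fed and 1.86 to 2.42 in fasted livers, without overlap. Acad11, which also acts on hydroxylated fatty acids, rose by 0.68 ± 0.10 (edgeR adjusted p = 0.0014).

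Acad9, Acad10 and Acad12 did not pass the test. Acad9, better known for its part in assembling respiratory complex I, had a log2 change of 0.01 ± 0.087 on average, with values of 22.9 to 32.4 CPM in controls and 23.8 to 33 CPM in knockouts. Acad10 and Acad12, which lie 2087 bases apart on chromosome 5, had average log2 differences of 0.27 ± 0.11 and 0.31 ± 0.22. In controls fed and fasted libraries overlapped for all 3 genes. In knockouts Acad10 had 34.6 to 41.1 CPM fed and 44.7 to 67.7 CPM fasted, and Acad12 8.21 to 8.51 CPM fed and 8.93 to 15.8 CPM fasted, without overlap. The log2 differences there were 0.50 ± 0.15 (edgeR adjusted p = 0.13) and 0.61 ± 0.32 (edgeR adjusted p = 0.42).

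Among the genes that carry the round from hydration to thiolysis, both trifunctional protein subunits rose. Hadhb (chr5:30155248-30184593), the thiolase subunit, had 144, 135 and 139 CPM in fed controls and 225, 303 and 247 CPM in fasted controls. In knockouts it had 114, 108 and 121 CPM fed and 209, 211 and 223 CPM fasted. Groups did not overlap in either genotype, the fed values being tight, and the average log2 change was 0.90 ± 0.081 (edgeR adjusted p = 5.3e-05).

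Hadha (chr5:30118304-30155162), which carries the hydratase and long-chain hydroxyacyl-CoA dehydrogenase activities, had 333, 295 and 307 CPM in fed and 444, 588 and 444 CPM in fasted controls. Its knockout values were 260, 261 and 278 CPM fed and 411, 432 and 494 CPM fasted. All fasted values lay above all fed ones, with an average log2 change of 0.70 ± 0.093 (edgeR adjusted p = 0.00064). The TPM ratio of Hadha to Hadhb was 1.65 to 1.82 in fed livers and 1.36 to 1.67 in fasted livers. The ranges touched only through fasted knockout replicate 3, at 1.67, and the fed controls.

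Hadh, the short-chain hydroxyacyl-CoA dehydrogenase, rose by 0.51 ± 0.077 on average (edgeR adjusted p = 0.0014), from 248 to 336 CPM fed to 373 to 451 CPM fasted. Hsd17b10, a dehydrogenase of branched and short chains that also serves in mitochondrial tRNA processing, rose by 0.71 ± 0.14 (edgeR adjusted p = 0.0083). Its fed control values of 145, 119 and 81.1 CPM were spread widely, with the lowest in replicate 3, the library that stood apart above.

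Echs1 and Acaa2 were the exceptions in this group. Echs1, the short-chain enoyl-CoA hydratase, had 261, 276 and 243 CPM in fed and 251, 253 and 280 CPM in fasted controls. Knockout livers had 250, 230 and 233 CPM fed and 279, 254 and 243 CPM fasted. Groups overlapped in both genotypes, and the average log2 change was 0.06 ± 0.073 (edgeR adjusted p = 0.64). Acaa2, the most abundant member by TPM, had an average log2 difference of 0.26 ± 0.10 and did not pass (edgeR adjusted p = 0.13). It stood at 879, 858 and 637 CPM in fed controls, the lowest again in replicate 3, and at 872, 1030 and 867 CPM in fasted controls. In knockouts it stood at 725, 759 and 753 CPM fed and 890, 887 and 986 CPM fasted. The control groups overlapped and the knockout groups did not, with log2 differences of 0.22 ± 0.14 and 0.30 ± 0.14 that did not pass (edgeR adjusted p = 0.42 and 0.35).

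The auxiliary enzymes prepare unsaturated fatty acids for the cycle. Decr1, the 2,4-dienoyl-CoA reductase, had 211, 182 and 200 CPM in fed controls and 245, 325 and 296 CPM in fasted controls. In knockouts it had 128, 158 and 169 CPM fed and 292, 273 and 282 CPM fasted. Fed knockout livers were the lowest of the 4 groups, and the average log2 change with fasting was 0.72 ± 0.093 (edgeR adjusted p = 0.00054). Eci1, an enoyl-CoA isomerase, had 148, 118 and 129 CPM in fed controls, 170, 237 and 187 CPM in fasted controls, 81.3, 99.1 and 99.7 CPM in fed knockouts and 209, 163 and 160 CPM in fasted knockouts. It rose by 0.76 ± 0.11 on average (edgeR adjusted p = 0.001), again with the fed knockout livers lowest.

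At the exit of electrons, Etfdh, the ubiquinone oxidoreductase, had 267, 239 and 231 CPM in fed and 381, 512 and 390 CPM in fasted controls. In knockouts it had 181, 203 and 250 CPM fed and 411, 392 and 443 CPM fasted. Fasted libraries were all above fed ones, with an average log2 change of 0.89 ± 0.11 (edgeR adjusted p = 0.00027). Etfa, the alpha subunit of the flavoprotein it accepts electrons from, had 248 to 329 CPM fed and 306 to 349 CPM fasted in controls, which overlapped, and 273 to 282 CPM fed and 311 to 354 CPM fasted in knockouts, which did not. Its average log2 change of 0.20 ± 0.087 did not pass (edgeR adjusted p = 0.17). The TPM ratio of Etfdh to Etfa was 0.162 to 0.227 in fed and 0.284 to 0.359 in fasted livers, without overlap. Etfb, the beta subunit, rose by 0.46 ± 0.096 (edgeR adjusted p = 0.0093), but 53.0% of its exonic bases are shared with the same-strand gene Etfbl, listed with 0 counts, so its level is uncertain.

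The synthetases that activate long-chain fatty acids went in opposite directions. Acsl1 (chr8:46471037-46536051), the main long-chain form of liver, had 1220, 958 and 673 CPM in fed controls and 1470, 2120 and 1370 CPM in fasted controls. In knockouts it had 754, 842 and 892 CPM fed and 1870, 1350 and 1690 CPM fasted. Fed and fasted libraries did not overlap although the fed controls were spread widely, and the average log2 change was 0.89 ± 0.16 (edgeR adjusted p = 0.004). Within controls it did not pass (0.80 ± 0.22, edgeR adjusted p = 0.067), and within knockouts it did (0.98 ± 0.22, edgeR adjusted p = 0.038). The knockout call was lost without fed control replicate 2, any fed knockout replicate or fasted knockout replicates 1 or 3 (adjusted p up to 0.176). The replicate block also ended it (0.0734), as did leaving out fed control replicate 3 and fed knockout replicate 1 together (0.0588).

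Acsl5 (chr19:55251938-55297720), a long-chain form linked to triglyceride synthesis, stood at 441, 550 and 531 CPM in fed and 252, 290 and 237 CPM in fasted controls. Its knockout values were 486, 457 and 450 CPM fed and 301, 300 and 291 CPM fasted. All fasted libraries lay below all fed ones, and the log2 change averaged -0.80 ± 0.084 (edgeR adjusted p = 0.00013). Acsl4, which prefers arachidonic acid, moved from 59 to 99.9 CPM fed to 32.9 to 50.1 CPM fasted, with an average log2 change of -0.91 ± 0.13 (edgeR adjusted p = 0.0014).

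Acsl3, a form found on the endoplasmic reticulum and lipid droplets, changed by -1.0 ± 0.23 on average (edgeR adjusted p = 0.023). It fell from 34.8 to 49.3 CPM in fed libraries to 13.4 to 30.7 CPM in fasted ones. The call was lost, with adjusted p up to 0.062, without any 1 of fed control replicates 2 or 3, fasted control replicate 2, fed knockout replicate 1 or fasted knockout replicates 1 or 3. It was also lost without the filter on low counts (adjusted p = 0.0754) and without fed control replicate 3 and fed knockout replicate 1 together (adjusted p = 0.116).

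The medium-chain synthetases showed smaller differences. Acsm5 had 153 to 184 CPM in fed and 117 to 152 CPM in fasted livers and fell by 0.31 ± 0.075 on the log2 scale (edgeR adjusted p = 0.022). That call was lost, with adjusted p up to 0.0677, without any 1 of fed control replicates 1 or 2, fasted control replicate 3, fed knockout replicates 1 or 3 or fasted knockout replicates 1 or 2. Acsm1 differed by -0.22 ± 0.12 and Acsm3 by 0.30 ± 0.097 on average, and neither passed the test (edgeR adjusted p = 0.3 and 0.071). Acsm3 had 101, 102 and 127 CPM in fed and 170, 159 and 156 CPM in fasted knockouts, without overlap, while its control groups overlapped. For Acsm3 39.7% of exonic bases are shared with Eri2 on the opposite strand.

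Because of these opposite changes, the make-up of the long-chain synthetase transcripts differed between fed and fasted livers of both genotypes. Acsl1 made up 51.4, 40.4 and 32.5% of the summed TPM of Acsl1, Acsl3, Acsl4 and Acsl5 in fed controls and 67.3, 74.2 and 69.2% in fasted controls. In knockouts its share was 35.7, 40.8 and 42.9% fed and 71.1, 62.6 and 69.9% fasted. The lowest fasted share was above the highest fed share, and the 2 genotypes covered similar ranges. The sum of the 4 genes was 525 to 570 TPM in fed and 480 to 612 TPM in fasted controls, which overlapped. In knockouts it was 475 to 493 TPM fed and 511 to 639 TPM fasted, without overlap. The TPM ratio of Acsl1 to Acsl5 was 0.588 to 1.28 in fed and 2.09 to 3.38 in fasted livers. The size of these shares and ratios depends on the fixed length per gene used for TPM. In CPM, mean Acsl1 was above mean Acsl5 in fed livers too, at 950 against 507 in controls and 829 against 464 in knockouts.

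**Figure D3:**
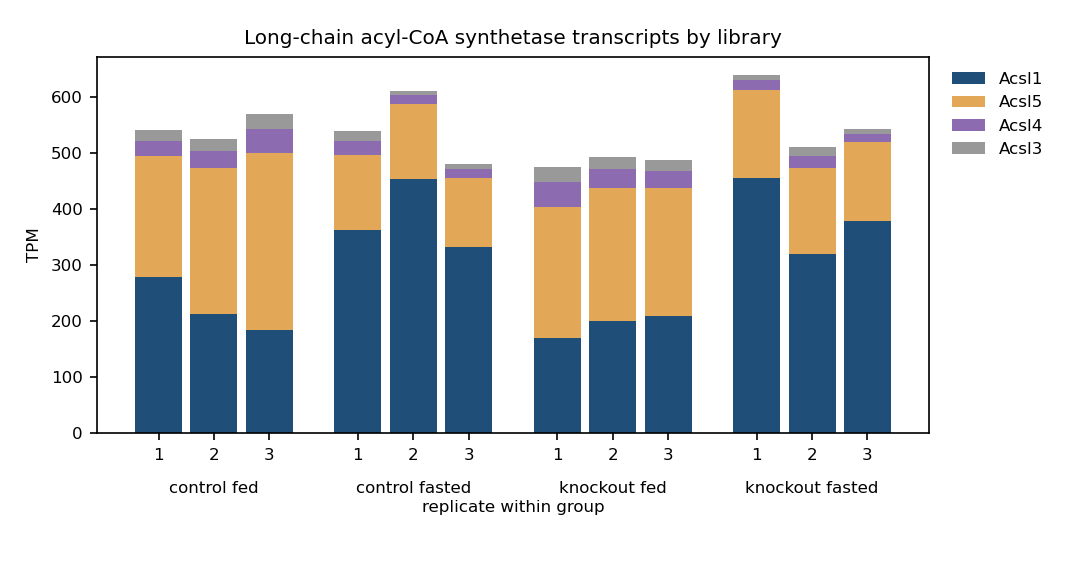
Stacked TPM of Acsl1, Acsl5, Acsl4 and Acsl3 in each of the 12 libraries, by group and replicate, on a linear axis from 0. Bar heights overlap between fed (525 to 570 TPM) and fasted (480 to 612 TPM) controls but not between fed (475 to 493 TPM) and fasted (511 to 639 TPM) knockouts, while the share of Acsl1 is 32.5 to 51.4% in fed and 62.6 to 74.2% in fasted livers.

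Knockout against control in the fed state gave no member past the threshold. At an adjusted p under 0.05, 0 of 31 members passed in edgeR, as did 0% of all tested genes, and 7 members had an unadjusted p under 0.05, all lower in the knockout (3.13% of all tested genes were lower at that level). DESeq2 called 1 member, Hadh (log2 -0.33, DESeq2 adjusted p = 0.0499), and 35 genes in all. It gave no adjusted p to 6 members. Of the 31 members, 28 had a fitted level below that of the control, against 52% of all tested genes, with a median log2 difference of -0.20 against -0.01. In 11 members every knockout library lay below every control library (5.99% of all tested genes), and in 0 did every one lie above (6.3%). Without fed control replicate 3 and fed knockout replicate 1 together, 30 of 31 members were below 0 with a median of -0.22, and the median lay between -0.27 and -0.16 when any 1 library was left out.

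The 7 members with an unadjusted p under 0.05 were Crat, Eci1, Decr1, Hadh, Acad11, Hadhb and Acads. Crat differed by -0.80 ± 0.27 (edgeR adjusted p = 0.81), and its fed control and fed knockout libraries overlapped at 51.2 and 55.8 CPM. Eci1 differed by -0.49 ± 0.15 (edgeR adjusted p = 0.77), Decr1 by -0.38 ± 0.13 and Hadh by -0.33 ± 0.11, each without overlap of the groups. Hadh stood at 336, 302 and 330 CPM in fed controls and 248, 264 and 257 CPM in fed knockouts. The 3 members with a fitted level above that of the control were the synthetases Acsl3, Acsl4 and Acsm1. All 8 acyl-CoA dehydrogenases and all 5 tested genes of the carnitine shuttle were on the lower side. Fed knockout replicate 1 held the lowest value of the 12 libraries for 14 of 31 members. All members were read in the same libraries, so counts of members by direction are not counts of separate observations. The stellate cell markers summed to 137 to 273 CPM in fed knockouts and 260 to 467 CPM in fed controls, and the infiltrating macrophage markers to 8.51 to 15.9 CPM and 6.69 to 54.1 CPM. The part of these other cell types in the member differences was not tested.

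**Figure D4:**
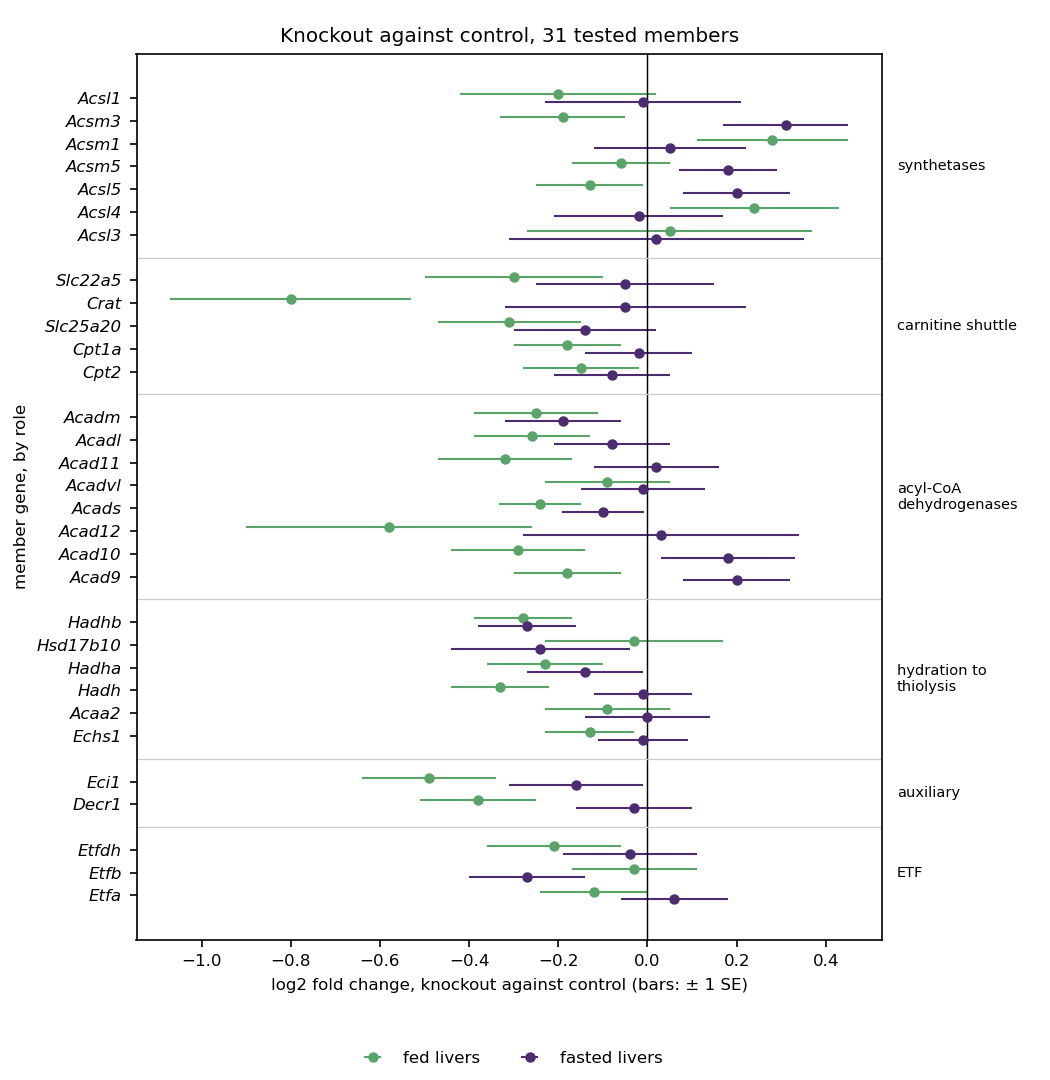
Fitted log2 fold change of knockout against control livers for the 31 tested members, grouped by role, in fed (green) and fasted (purple) mice, with bars of 1 SE. In fed livers 28 of 31 points lie below 0, with Crat lowest at -0.80, and in fasted livers the points lie between -0.27 and 0.31. No member passed the edgeR threshold in either state.

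In fasted livers none of the 31 passed in edgeR or DESeq2, against 0.0252% of all tested genes called higher and 0.0063% called lower by edgeR, and the median log2 difference was -0.02, with 10 members above and 21 below 0. DESeq2 called 41 genes in all in this comparison. Fasted control replicate 2 held the highest value of the 12 libraries for 17 of 31 members. The direction turned without that library: the member median was then 0.06, with 19 above and 12 below. The median was -0.08 without fasted control replicate 1, -0.05 without fasted control replicate 3, -0.06 without fasted knockout replicate 1, -0.01 without fasted knockout replicate 2 and -0.04 without fasted knockout replicate 3. Only Acsm3 (0.31 ± 0.14, edgeR adjusted p = 0.54) and Hadhb (-0.27 ± 0.11, edgeR adjusted p = 0.53) had an unadjusted p under 0.05, 1 higher and 1 lower, where 4.65% and 4.36% of all tested genes were. Every knockout library lay above every control library in 4 members, Acsl5, Acsm3, Acsm5 and Acad9 (6.82% of all tested genes), and below in 1, Hadhb (7.2%). Acsm3 had 124, 153 and 113 CPM in fasted controls and 170, 159 and 156 CPM in fasted knockouts. Hadhb was thus below the control in all knockout libraries of both states, with differences of -0.28 ± 0.11 fed and -0.27 ± 0.11 fasted. In these fasted groups the 5 T and NK cell markers summed to 4.35 to 5.78 CPM in controls and 1.66 to 3.01 CPM in knockouts, and the B and plasma cell markers to 7.41 to 212 CPM and 4.43 to 5.98 CPM.

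Averaged over both states, DESeq2 called 0 members and 46 genes in all. In edgeR 0 members passed, against 0.0126% of all tested genes called higher and 0% lower. At an unadjusted p under 0.05 there were 7, all lower in the knockout: Acadm, Acads, Crat, Decr1, Eci1, Hadh and Hadhb, where 3.67% of all tested genes were lower, with Hadhb at -0.28 ± 0.08 (edgeR adjusted p = 0.51) and Eci1 at -0.33 ± 0.11 (edgeR adjusted p = 0.56). The interaction asks whether fasting changed a gene by a different amount in knockouts than in controls. For it DESeq2 called 0 members and 60 genes in all. In edgeR it also called 0 members, against 0.0063% of all tested genes called higher and 0% lower. In 26 of 31 members the fitted fasting change was more positive in the knockout, against 49.3% of all tested genes, with a median of 0.17. Without fed control replicate 1 this was 22 of 31 with a median of 0.11, and without fasted control replicate 2 it was 26 with a median of 0.26. The interaction and the fed genotype comparison share the fed libraries, so the 2 descriptions are not independent. The unadjusted p was under 0.05 for Acsm3 (0.50 ± 0.19) and Acad9 (0.38 ± 0.17), both higher (3.86% of all tested genes), with edgeR adjusted p of 0.63 and 0.69. A difference between genotypes in the fasting response of any single member was thus not shown by this test.

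Genes around the core route were examined in 4 further lists. Of 17 tested further mitochondrial enzymes and carriers of fatty acid oxidation, 6 rose with fasting averaged over genotypes and 0 fell (4.55% and 4.52% of all tested genes), with a median log2 change of 0.14. Eci2, a second enoyl-CoA isomerase, rose by 0.83 ± 0.12 (edgeR adjusted p = 0.0013), and Acat1, the acetoacetyl-CoA thiolase of mitochondria, by 0.61 ± 0.09 (edgeR adjusted p = 0.0012). Acsf2, an acyl-CoA synthetase, rose by 0.42 ± 0.079, and Acot2, a mitochondrial acyl-CoA thioesterase that has close paralogs and is therefore uncertain, by 1.76 ± 0.30. The calls of Acsf3 (0.32 ± 0.077) and Slc25a42 (0.29 ± 0.084) were lost without some single libraries. For Acsf3 these were fasted control replicate 2 and fed knockout replicate 2 (adjusted p up to 0.0518), and it was also lost on log2(TPM + 1) and log2(TPM + 0.1) (limma adjusted p = 0.117 and 0.115) and without fed control replicate 3 and fed knockout replicate 1 together (0.059). For Slc25a42 they were all except fed control replicate 1 and fasted control replicate 1 (adjusted p up to 0.109), and it was also lost with the replicate block (0.0715) and without those 2 fed libraries together (0.15).

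Of 15 tested regulators, 2 rose and 3 fell (4.55% and 4.52% of all tested genes), with a median log2 change of 0.10, which was 0.16 without fasted control replicate 2 or fasted knockout replicate 3. Acaca and Acacb, whose products make the malonyl-CoA that inhibits Cpt1, changed by -1.57 ± 0.11 and -2.23 ± 0.15 on the log2 scale (edgeR adjusted p = 8e-06 for both). Mlycd, the decarboxylase that removes malonyl-CoA, rose by 0.51 ± 0.076 (edgeR adjusted p = 0.0013). Prkaa2, a catalytic subunit of AMP-activated kinase, fell by 0.39 ± 0.10 (edgeR adjusted p = 0.029), a call lost without fed control replicate 1, fasted control replicate 3, fed knockout replicates 2 or 3 or fasted knockout replicates 1 or 2 (adjusted p up to 0.0813) or with the replicate block (0.0605). Rxra, the retinoid X receptor alpha, rose by 0.37 ± 0.098 (edgeR adjusted p = 0.034), a call lost without any 1 of 9 of the 12 libraries (adjusted p up to 0.079), the exceptions being fed control replicates 1 and 3 and fasted knockout replicate 1. The Rxra call was also lost with the replicate block (0.0594) and without fed control replicate 3 and fed knockout replicate 1 together (0.0697). The count of 5 became 3 when fasted control replicate 3, fed knockout replicate 3 or fasted knockout replicate 2 was left out. The genes called in all went there from 1438 to 1248, 1046 and 1131.

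Of the 6 other flavoenzymes that feed electron transfer flavoprotein, 0 passed in edgeR and 3 had an unadjusted p under 0.05. DESeq2 called 1 of them and 1891 genes in all. Of all tested genes, 9.07% passed in edgeR and 23.6% had an unadjusted p under 0.05. Their median log2 change was 0.21, and the smallest p values were those of Gcdh (0.26 ± 0.094) and Acad8 (0.16 ± 0.059), both with an edgeR adjusted p above the threshold (0.11 and 0.12). Of 13 other mitochondrial enzymes and structural genes, 0 rose and 1 fell, a share of 7.69% against 9.07% of all tested genes in either direction. It was Cs, the citrate synthase (-0.57 ± 0.10, edgeR adjusted p = 0.0049). The median of that list was 0.12, and the count was 2 without fasted control replicate 1, where 1305 genes in all passed. Side by side, the median of the 31 beta-oxidation members was 0.55, and the medians of the 4 lists were 0.14, 0.10, 0.21 and 0.12. The lists were written with earlier results of these data known. The regulator list mixes genes that act in opposite ways on the route, such as Acacb and Mlycd, so its median does not measure a response. The differences between these medians were not tested.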

How the data were processed

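Poly(A) RNA of 12 frozen livers was sequenced from strand-specific libraries, per the labels' protocols. Per the submitters' processing notes, build mm10 was used with featureCounts 1.6.3, HISAT2 2.1.0, Trimmomatic 0.38, bcl2fastq 2.19 and DESeq2 1.24.0. How strand and shared reads were treated in counting is not given in the sources used here. Raw counts and TPM were deposited per gene, and the deposited TPM equal the counts over 1 fixed length per gene (largest relative deviation 3.6e-08 over 10524 genes). All 12 columns were matched to samples by label, and the coordinates of all 32 members equal those of GENCODE M21.

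Counts were scaled by TMM and tested in edgeR 4.0.16 (R 4.3.3) by its robust quasi-likelihood F test, 2-sided, after filterByExpr removed 39625 genes. All 12 libraries entered 1 fit with a mean per group, and 7 contrasts were each adjusted by Benjamini-Hochberg over 15862 genes. SE is the absolute log2 fold change over the square root of F. CPM values are TMM-scaled. The procedure was run on simulated counts with changes planted in the fasting contrast of controls only. Changes as small as most genotype differences reported here were not simulated. Library totals were 17520058 to 22414976 counts. The p-values rest on the spread between animals within groups, with 3 animals per group. That spread was pooled over the 4 groups and moderated across genes.

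Alternatives were other size factors (RLE, upper quartile), no filter or 1 CPM in 3 libraries, DESeq2 1.42.0, limma 3.58.1 with voom or on log2(TPM + 1) and log2(TPM + 0.1), only the compared groups, a replicate block, each library left out, and, added after seeing the data, fed control replicate 3 and fed knockout replicate 1 left out together. The members were set by gene symbol, and the 4 further lists were written with earlier results of these data known. All members may be named, and of each further list the genes that passed or otherwise the 2 with the smallest p. Mut and Atp5f1a are other names of Mmut and Atp5a1 and were counted once. Motifs and figures were made with Python.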

Additional observations from a re-analysis of the deposited data

How the results depend on the processing

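Of the calls averaged over both genotypes, 21 of 23 member results kept their direction and their side of the threshold in all 22 alternatives, the exceptions being Acsl3 and Acsm5. Of 506 such values, 491 stayed on the same side and 15 no longer passed. Within controls this held for 8 of 16 results (289 of 368 values) and within knockouts for 8 of 19 (383 of 437). No result changed sign. With only the compared groups in the fit, 8 members and 300 genes in all passed in controls, against 16 and 657 in the main fit. Leaving out 1 library gave 8 to 17 in controls, 8 to 21 in knockouts and 21 to 23 on average. Over all genes those fits called 272 to 648, 88 to 573 and 1025 to 1425. DESeq2 called 1 member and 35 genes in all in fed knockout against control. Of the regulators, DESeq2 called 8 and the replicate block 3, and single libraries left out gave 3 to 6. Over all genes those settings called 1891, 1086 and 1025 to 1425, against 1438 in the main fit. Of the other flavoenzymes DESeq2 called 1. Of the other mitochondrial genes 2 passed without the filter, 4 in DESeq2, 2 each on log2(TPM + 1) and log2(TPM + 0.1), and 1 to 2 with 1 library left out. Over all genes 1352 passed without the filter, 1891 in DESeq2, 1091 on log2(TPM + 1) and 1089 on log2(TPM + 0.1). The cause of these shifts was not tested. Fewer samples enter the fits of compared groups and those with a library left out. The replicate block gave 11, 16 and 23 member calls in controls, knockouts and on average, with 439, 232 and 1086 genes in all. The replicate numbers name no shared origin in the labels: same-numbered libraries deviated with correlations of -0.32 to 0.16, and a library correlated best with its own number in 7 of 36 cases. Other scalings moved the median of all genes by at most 0.05 on the log2 scale. Only Cpt1b, at or under 0.464 CPM, did not pass the filter on low counts. Acad12 had 146 to 431 counts per library. The part of depth in the other member results was not tested.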
